A study of Mus musculus with 31 samples.

Results

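Cck, Tac1 and Gal encode the precursors of cholecystokinin, of substance P and neurokinin A, and of galanin, and Cckbr encodes the cholecystokinin B receptor, the main cholecystokinin receptor of the brain. These 4 genes were taken by symbol from the deposited array annotation, out of 8973 named genes measured above background, because their peptides are used by neurons of the bed nucleus of the stria terminalis (BNST) and the preoptic area (POA) and have been tied to reproductive behaviour. Each of the 4 genes was read by 1 named probe, and each probe was detected on all 31 arrays.

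The arrays were Illumina single-colour bead arrays hybridised with total RNA from dissected BNST/POA of MF1 mice aged 152 days, a mouse model of Klinefelter syndrome in which sex chromosome number and the testis-determining gene Sry vary separately. The groups were XX females (8 arrays), XX males (7 arrays, coded XXSry), XXY males (8 arrays, coded XXY.Sry) and XY males (8 arrays, coded XY.Sry). In this Sex Chromosome Trisomy model the Y chromosome lacks its own Sry and an autosomal transgene supplies it, so all 3 male groups carry the transgene and the females do not. Hormone state at collection is not given in the sources used here. The question behind the comparisons was whether expression in XXY males resembles that of females, as their choice of partner did.

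Signals below are log2 values after background correction and quantile normalization, and a difference of 1 on this scale is a doubling. Between 12939 and 14397 of 25697 probes were detected per array, and 11712 probes or genes entered the tests. The labels name 2 batches, with 5 arrays of each group in batch 1 and the rest in batch 2, and 44.7% of all features differed between batches by limma's test at an adjusted p under 0.05. The array XX male 6, labelled batch 1, stood apart from that label. Its score on the leading principal component was 27.7, against at least 20.4 for the batch 2 arrays and at most -10.8 for the other batch 1 arrays. In each other group the array numbered 6 was labelled batch 2. The label of XX male 6 was kept in the main fit. Xist was detected on every array of the XX female, XX male and XXY male groups and on 0 of 8 XY male arrays. Of 18 listed markers of BNST and preoptic neurons 10 were measured, and each of these, among them the estrogen receptor Esr1 and the progesterone receptor Pgr, was detected on at least 29 arrays. Markers of adjoining regions were present too, including Tcf7l2 of thalamus and Drd1 of striatum on all 31 arrays. The samples are called biological replicates, and the p-values measure the spread between them.

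As background, neuropeptides are cut from larger precursors, stored in dense-core vesicles and released to act on G protein-coupled receptors. Cholecystokinin acts through the A and B receptors, substance P and neurokinin A act through the tachykinin receptors, and galanin acts through its own receptor family. In the preoptic area and BNST, galanin neurons are known for parental behaviour, and cholecystokinin and substance P cells of this region are known to differ in number or staining between the sexes in rodents. Cck transcripts are also abundant in cortex and thalamus, and Tac1 is a classical marker of direct-pathway neurons of the striatum, so the same transcript can come from neighbouring tissue.

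Cyclic AMP signalling is a known regulator of neuropeptide genes, so the promoters of the 3 peptide genes are shown around the core of the cAMP response element, TGACG. Sequences are RefSeq promoters on GRCm38.p6, searched on both strands in a window that spans the start site. Each line gives 45 bases on the strand of the gene, with the core in capitals, written CGTCA where the match lies on the other strand.
Cck, chr9:121495717-121495761, minus strand: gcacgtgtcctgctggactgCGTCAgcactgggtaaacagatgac
Tac1, chr6:7554844-7554888, plus strand: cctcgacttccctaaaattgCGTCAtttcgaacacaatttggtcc
Tac1, chr6:7554998-7555042, plus strand: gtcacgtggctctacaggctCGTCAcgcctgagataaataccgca
Gal, chr19:3414501-3414545, minus strand: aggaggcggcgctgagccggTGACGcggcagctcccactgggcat
The Cckbr window held no match to TGACG. The core occurred in 20.8% of 32851 mouse promoters of the same length. The full palindromic estrogen response element was found in 0 of these 4 promoters and in 0.07% of all. A match describes letters in a window and says nothing about binding in these samples.

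None of the 4 genes passed an adjusted p of 0.05 in the test of any difference among the 4 groups, in which 0.0854% of all features passed. The adjusted p of limma's moderated F test was 0.972 for Cck, 0.943 for Cckbr, 0.975 for Tac1 and 0.943 for Gal. Before adjustment 580 of 11712 features had a p under 0.05 in this test, and 0 of the 4 genes were among them. Groups overlapped in every pairwise comparison of every one of the 4 genes.

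Cck (chr9:121489824-121495694, GRCm38.p6), the cholecystokinin precursor gene, had the widest spread between arrays. In XX females its log2 signal ranged from 9.16 to 12.16 with a median of 11.05, and in XY males from 9.75 to 12.19 with a median of 11.00. In XX males it ranged from 9.31 to 11.62 with a median of 11.12, and in XXY males from 9.10 to 11.19 with a median of 10.81. Each group thus held both high and low arrays, and the lowest array of each group lay below the medians of all 4. The order of the means was XX female (10.94 ± 0.89, SD, n = 8), XY male (10.92 ± 0.93, n = 8), XX male (10.71 ± 0.91, n = 7) and XXY male (10.50 ± 0.76, n = 8), and no neighbours in it differed beyond this spread.

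For Cck, the difference between XXY and XY males was -0.42 (95% interval -1.29 to 0.44), a comparison in which 0 of the 4 genes and 0.0512% of all features passed. It was -0.11 within batch 1 and -0.95 within batch 2, and -0.21 without XXY male 8. On the linear scale the pooled difference was a fold of 0.745, with an interval from 0.410 to 1.36. XX females differed from XY males by 0.01 (-0.85 to 0.88), and 0.0683% of features passed there. XX males differed from XY males by -0.21 (-1.11 to 0.68), with 0.0598% of features passing, and none of these intervals for Cck excluded 0.

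Tac1 (chr6:7555061-7562978), the gene of the precursor of substance P and neurokinin A, ranged from 10.77 to 11.44 with a median of 11.13 in XX females and from 10.85 to 11.72 with a median of 11.17 in XX males. XXY males spanned 10.76 to 11.59 around a median of 11.35, and XY males 10.42 to 12.38 around a median of 11.32. The highest and the lowest of all 31 arrays were both XY males, replicate 2 at 12.38 and replicate 5 at 10.42. The means were 11.32 ± 0.53 in XY males (SD, n = 8), 11.26 ± 0.29 in XXY males (n = 8), 11.23 ± 0.30 in XX males (n = 7) and 11.13 ± 0.22 in XX females (n = 8), and no neighbours in this order differed beyond their spread. The difference between XX females and XY males was -0.20 (-0.55 to 0.16), which was -0.04 without XY male 2 and -0.32 without XY male 5. That between XXY and XY males was -0.06 (-0.42 to 0.30). XX females differed from the mean of the 3 male groups by -0.15 (-0.44 to 0.15), where 0 of the 4 genes and 0.0512% of features passed.

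Gal (chr19:3409915-3414544), the galanin precursor gene, was at 12.16 to 12.98 with a median of 12.61 in XX females and at 11.88 to 13.05 with a median of 12.54 in XX males. It was at 12.31 to 13.10 with a median of 12.80 in XXY males and at 12.30 to 13.07 with a median of 12.79 in XY males. XX males held the lowest of all 31 arrays, replicate 6 at 11.88, and one near the top, replicate 8 at 13.05. The order of means was XXY male (12.76 ± 0.29, SD, n = 8), XY male (12.74 ± 0.26, n = 8), XX female (12.59 ± 0.34, n = 8) and XX male (12.47 ± 0.41, n = 7), again without a difference between neighbours beyond the spread.

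The Gal levels of XXY and XY males differed by 0.02 (-0.31 to 0.35), an interval that leaves room for a fold between 0.807 and 1.27. XXY males differed from XX males by 0.30 (-0.04 to 0.64, unadjusted p 0.082, adjusted p 0.763 by limma), a comparison in which 0 of the 4 genes and 0.0256% of features passed. Without XX male 6, the array that stood apart from its batch label, this difference was 0.20, and that between XX males and XY males moved from -0.28 to -0.18.

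Of the 4 genes, Gal had the smallest p for a change of a group difference between the batches, in the comparison of XX females with XX males. In batch 1 XX females were at 12.78 ± 0.29 (SD, n = 5) and XX males at 12.29 ± 0.32 (n = 5), a difference of 0.49. In batch 2 the 3 XX females lay between 12.16 and 12.38 and both XX males were above them, at 12.76 and 13.05, a difference of -0.62. These values use the batch labels, so XX male 6, which stood apart from its label, counts in batch 1. At 11.88 it lay below all 3 XX females of batch 2. The change between batches was not tested with XX male 6 counted in batch 2. The pooled difference between these groups was 0.13 (-0.21 to 0.47), with 0 of the 4 genes and 0.0256% of features passing, and it was 0.032 without XX male 6. The change of the difference between batches was -1.11 ± 0.30 (SE), with an unadjusted p of 0.001 and an adjusted p of 1.00 over all features in limma's interaction test. Batch and any condition that changed with it cannot be told apart.

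Cckbr (chr7:105425676-105436339), the gene of the receptor, ranged from 9.10 to 10.22 with a median of 9.94 in XX females and from 9.06 to 9.94 with a median of 9.68 in XX males. XXY males lay between 9.64 and 10.23 with a median of 10.01, and XY males between 9.24 and 10.28 with a median of 9.67. Of the 8 XXY arrays 7 were above the XY median and 7 above the XX male median, while all ranges overlapped. The means were 9.99 ± 0.19 in XXY males (SD, n = 8), 9.84 ± 0.38 in XX females (n = 8), 9.70 ± 0.39 in XY males (n = 8) and 9.62 ± 0.30 in XX males (n = 7), and neighbours in this order did not differ beyond their spread.

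The receptor gene gave the smallest p among the 4 genes in any comparison. Cckbr in XXY males differed from XX males by 0.38 (0.06 to 0.71), a fold of 1.30 (1.04 to 1.63), with an unadjusted p of 0.022 and an adjusted p of 0.748 by limma. It ranked 339 of 11712 features in that comparison, where 767 had an unadjusted p under 0.05, so the difference did not pass the test over all features. Without XX male 6 it was 0.42, and leaving out 1 array at a time gave 0.30 (without XX male 8) to 0.47 (without XX male 7). It was 0.26 ± 0.19 (SE) within batch 1 and 0.58 ± 0.27 within batch 2. No other of the 4 genes had an unadjusted p under 0.05 in any of the 7 comparisons. XXY and XY males differed by 0.29 (-0.02 to 0.60, unadjusted p 0.067). Within batch 1 the difference from XY males was 0.05 ± 0.19 (SE) and within batch 2 it was 0.70 ± 0.24, and the change between batches had an unadjusted p of 0.045 and an adjusted p of 1.00 in limma's interaction test. XXY males differed from XX females by 0.15 (-0.16 to 0.46), a comparison with 0 of the 4 genes and 0.0512% of features passing, and by 0.03 without XX female 1.

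**Figure D1:**
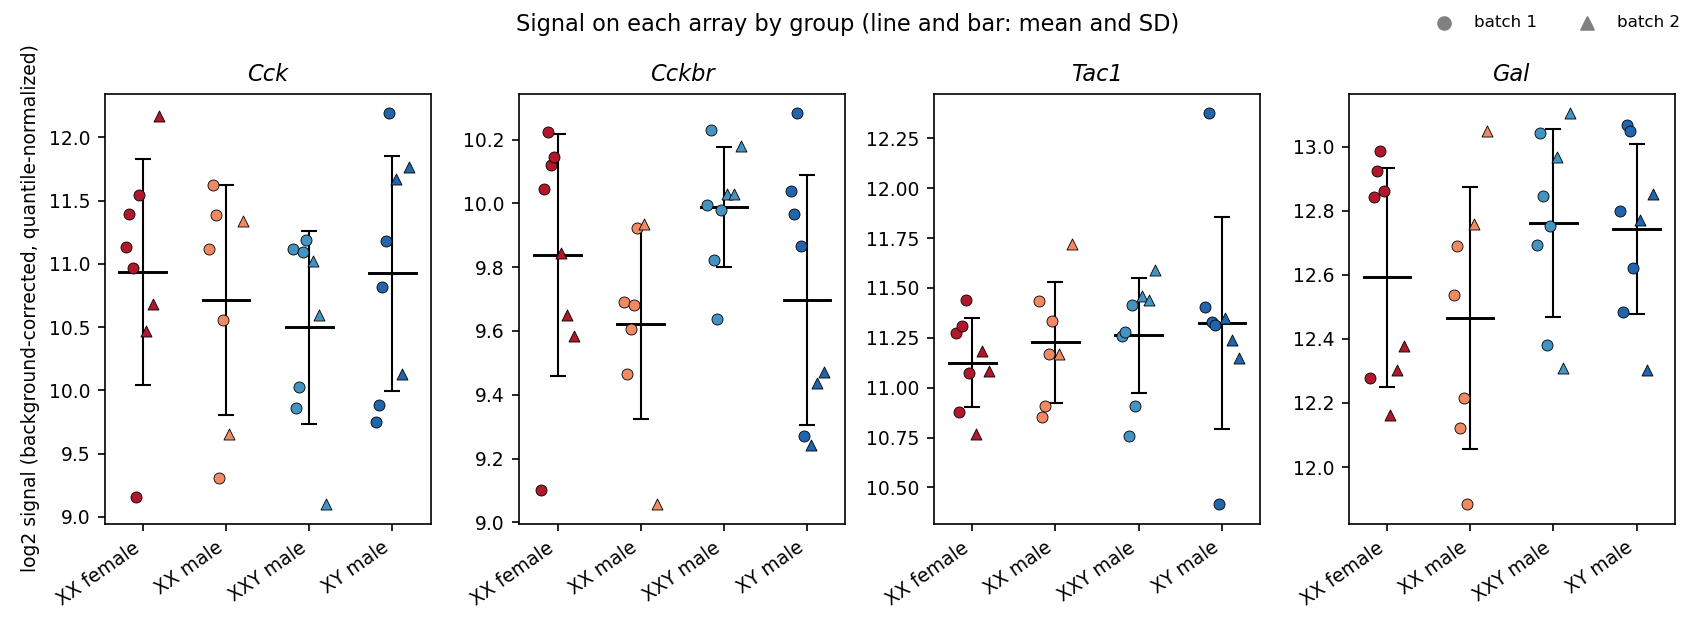
Log2 signal of Cck, Cckbr, Tac1 and Gal (y axis, 1 panel per gene) on each of the 31 arrays by group (x axis), with circles for batch 1, triangles for batch 2, and line and bar for mean and SD. The groups overlap in every panel, and Cck spans from 9.10 to 12.19.

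**Figure D2:**
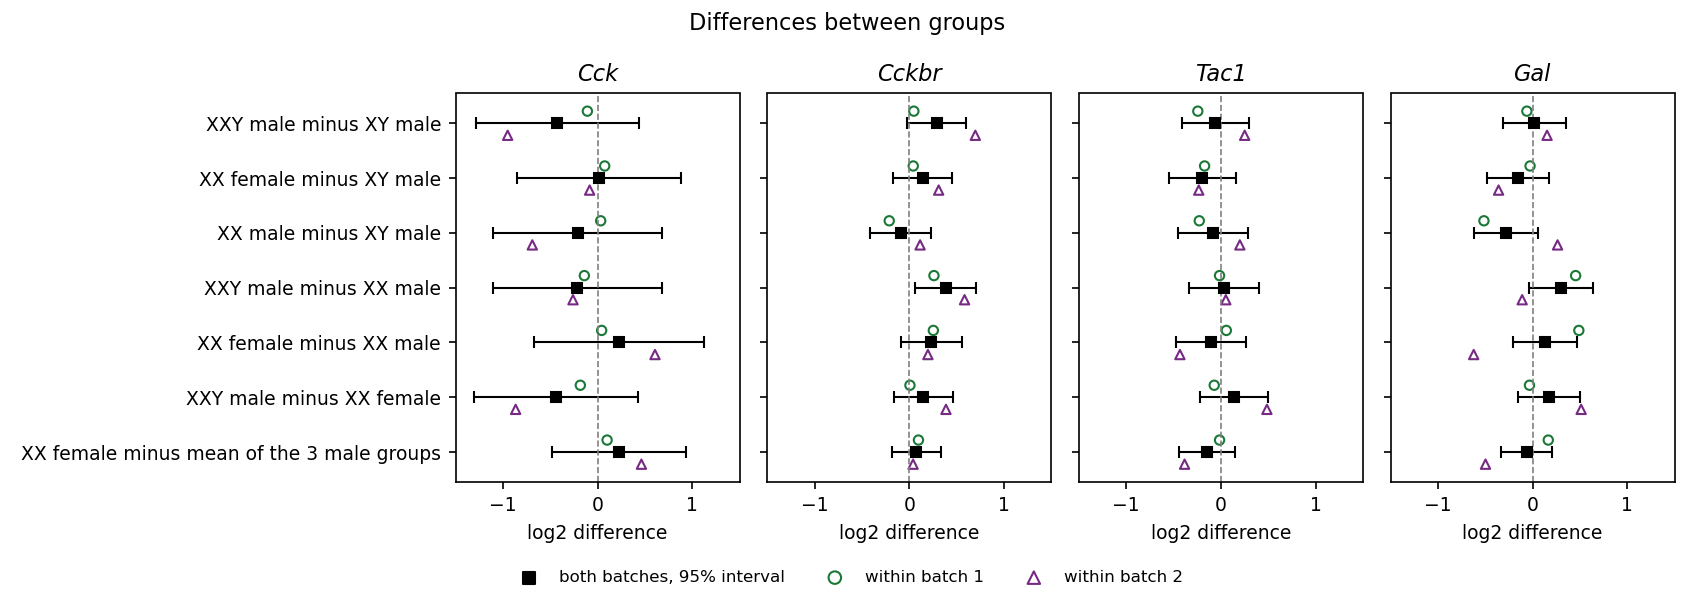
Log2 difference (x axis) of each gene in 7 comparisons (y axis), with squares and 95% intervals from limma over both batches and open symbols for the difference within each batch. All intervals but that of Cckbr for XXY minus XX males, 0.06 to 0.71, include 0.

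In the test between batches 0 of the 4 genes passed, beside 44.7% of all features. The batch difference was 0.01 for Cck, -0.19 for Cckbr (adjusted p 0.177 by limma), 0.08 for Tac1 and -0.04 for Gal. Bead-level noise was small beside the spread between arrays, with a median bead standard error of 3.46% to 3.87% of the signal across the 4 probes.

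Most of the variation lay between arrays of the same group and batch. That share was 95.3% for Cck, 75.2% for Cckbr, 94.3% for Tac1 and 86.7% for Gal, and group accounted for 4.72%, 18.4%, 4.48% and 13.3% after batch. The residual SD of Cck was 0.89, larger than that of 99.0% of all features, whose median was 0.23. The residual SD was 0.32 for Cckbr, 0.36 for Tac1 and 0.33 for Gal, larger than in 78.3%, 87.8% and 82.4% of features. The rest of the description therefore follows the deviation of each array from its group and batch, and which marker genes deviated on the same arrays. Marker lists were averaged per array, and 62 relations (6 among the 4 genes and 14 lists with each gene) were tested by permutation with 100000 resamples and Benjamini-Hochberg adjustment over the family. The shuffles took no account of the group and batch terms already removed. These p-values may therefore be somewhat too small, which matters most for relations near the threshold. In a bulk tissue sample, fewer cells of a type and less RNA per cell cannot be told apart.

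Cck followed the thalamic markers almost array by array. Its deviation correlated with the mean of 6 measured thalamic markers at r = 0.96 and rho = 0.93 over 31 arrays (permutation p 1e-05, the smallest these resamples can give, adjusted p 0.00031). The same correlation was 0.97 in batch 1 and 0.96 in batch 2, and it was 0.95 without the 2 arrays farthest from the median of the list, XX female 4 and XY male 1. The array with the highest Cck, XY male 5, was 1.27 above its group and batch and had the thalamic list at 1.00. The array farthest below its own group and batch, XX female 4, was at -1.78 with the list at -1.17.

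Among single genes, Ntng1, which encodes the axon-guidance protein netrin-G1, was the nearest of 8972 to Cck with r = 0.97 over 31 arrays, followed by the transcription factor Tcf7l2 (r = 0.95), Necab1 (r = 0.95), Shox2 (r = 0.93) and Cpne9 (r = 0.93). The range from the 5th to the 95th percentile of all genes was -0.42 to 0.41. The vesicular glutamate transporters Slc17a6, typical of thalamus, and Slc17a7, typical of cortex, had r = 0.90 and r = 0.73. Tpbg and Kctd9 ran most against Cck, each with r = -0.79.

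The group means of the thalamic list are given beside the Cck values, since they moved together. The list mean was 0.22 in XX females (range over arrays -0.96 to 0.81), 0.11 in XY males (-0.92 to 1.11), -0.09 in XX males (-1.03 to 0.70) and -0.24 in XXY males (-1.01 to 0.44), the same order as the Cck means. All 6 measured thalamic markers had a negative difference between XXY and XY males, with a median of -0.32 and 0 of 6 passing the test, beside -0.42 for Cck. The median of that difference over all features was 0.00. The part of this in the Cck difference was not tested.

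Cck also correlated with the list of cortical and hippocampal neurons (r = 0.67, rho = 0.71, adjusted permutation p 0.00031), at 0.72 in batch 1 and 0.63 in batch 2. The 4 measured members differed, with r = 0.73 for Slc17a7, whose residual SD of 1.11 was the largest of the list, 0.38 for Camk2a, 0.23 for Tbr1 and -0.05 for Cux2. Cck ran against the list of Cck interneurons, which are inhibitory cells that make the peptide in cortex and hippocampus, with r = -0.64 and rho = -0.54 (adjusted permutation p 0.00186). Only 3 of the 6 listed markers were measured, Cnr1 (r = -0.34 with Cck), Vip (-0.45) and Slc17a8 (-0.44). With the list of GABA neurons, Gad1 and Slc32a1, Cck had r = -0.57 and rho = -0.49 (adjusted permutation p 0.0115), and with the BNST and preoptic list r = -0.42 and rho = -0.43, which did not pass (adjusted permutation p 0.0997). In batch 2 alone only the thalamic relation of Cck passed.

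**Figure D3:**
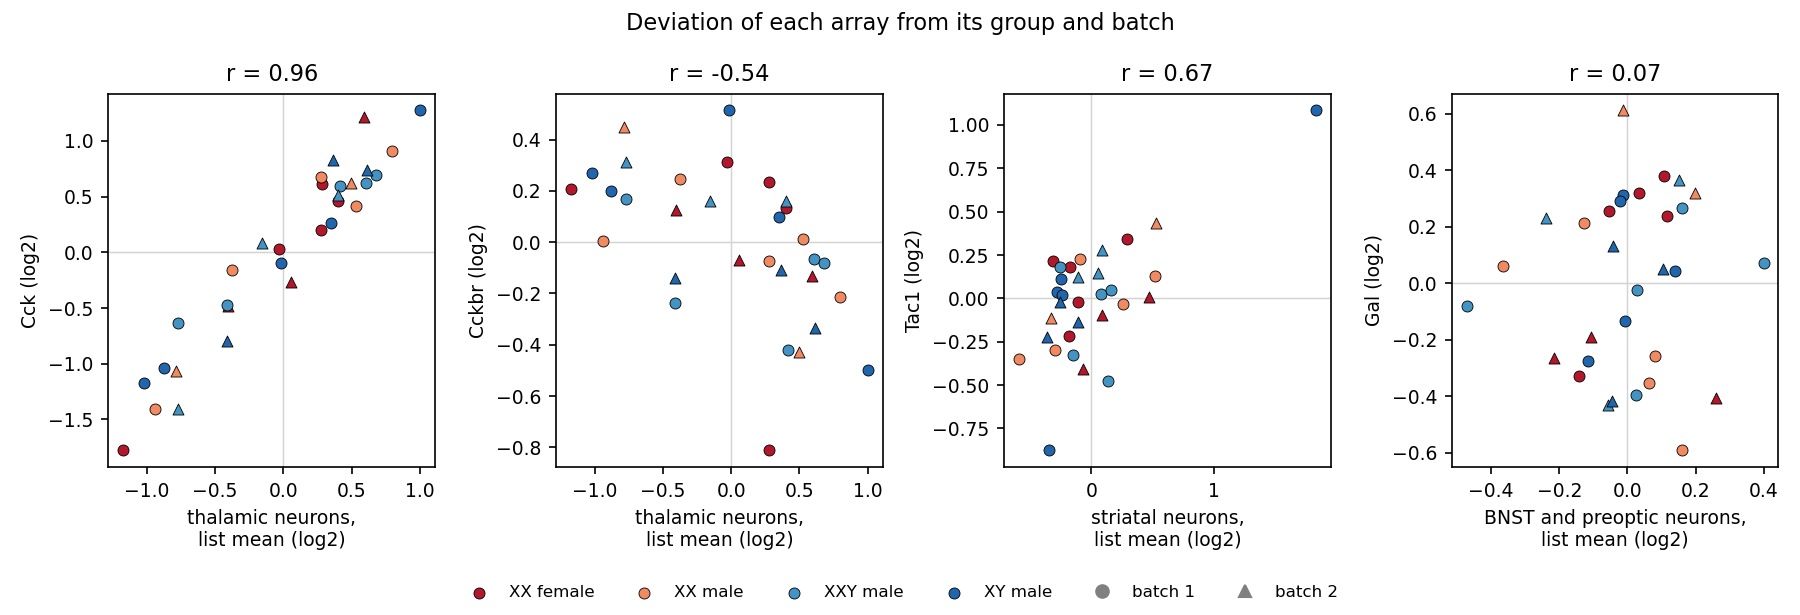
Deviation of each of the 31 arrays from its group and batch, for a gene (y axis, log2) against the mean of a marker list (x axis, log2), coloured by group and shaped by batch. Cck rises with the thalamic list at r = 0.96 and Cckbr falls with it at r = -0.54, while in the Tac1 panel XY male 2 lies far from the other arrays on both axes.

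Cckbr ran opposite to Cck and to the thalamic and cortical lists, while its correlations with the lists of GABA neurons (r = 0.05) and Cck interneurons (r = 0.28) did not pass. Its correlation with Cck was r = -0.50 and rho = -0.59 over 31 arrays (adjusted permutation p 0.0271). It was -0.42 in batch 1 and -0.66 in batch 2, neither of which passed alone, and -0.50 without XX female 1 and XY male 5, with an adjusted p of 0.0504. With the thalamic list Cckbr had r = -0.54 and rho = -0.59 (adjusted permutation p 0.0122), which was -0.47 in batch 1, -0.76 in batch 2 and -0.52 without the 2 farthest arrays. With the cortical and hippocampal list it had r = -0.56 and rho = -0.58 (adjusted permutation p 0.0119), and r = -0.44 without XX male 8 and XY male 5, where it no longer passed (adjusted permutation p 0.107). Of its members Slc17a7 had r = -0.52 with Cckbr, Tbr1 -0.33, Cux2 -0.32 and Camk2a -0.10.

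The genes nearest to Cckbr over 31 arrays were Faap20 (r = 0.65), Rbpms2 (r = 0.63), Tle6 (r = 0.62), Plcxd1 (r = 0.60) and Rbm38 (r = 0.60). Those that ran most against it were Med24 (r = -0.71), a subunit of the Mediator complex, and Inpp4b (r = -0.66), a phosphoinositide phosphatase. No measured gene came as near to Cckbr as Ntng1 did to Cck. For Cckbr the range from the 5th to the 95th percentile of all genes was -0.34 to 0.32. The genes named here are the extremes of 8972, and their relations with Cckbr were not tested. Rbm38 was at 0.71 in batch 1 and 0.28 in batch 2.

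Tac1 deviated with markers of the striatum and of hypothalamic peptide neurons. With the mean of 6 striatal markers it had r = 0.67 and rho = 0.42 (adjusted permutation p 0.0036), but without XX male 8 and XY male 2 this fell to r = 0.33 (adjusted permutation p 0.291), so the relation rests on those 2 arrays. XY male 2 alone had Tac1 at 1.08 and the striatal list at 1.82 above its group and batch, and leaving it out gave r = 0.42 (adjusted permutation p 0.113). On that array Drd1, the dopamine D1 receptor gene, was at 10.90, against 6.49 to 9.04 on the other arrays, and Rgs9, a striatal regulator of G protein signalling, was at 11.65, against 9.87 to 11.24.

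With the arcuate list, the precursor gene Pomc and the neuropeptide gene Npy, Tac1 had r = 0.65 and rho = 0.67 (adjusted permutation p 0.000827). It was 0.67 in batch 1, 0.59 in batch 2 and 0.52 without XXY male 3 and XY male 5. With the lateral hypothalamic list of Hcrt, Pmch and Cartpt, r was 0.52 and rho 0.58 (adjusted permutation p 0.0178), and without XX male 1 and XY male 5 r was 0.40 and no longer passed (adjusted permutation p 0.145). With the magnocellular list of vasopressin and oxytocin genes, r was 0.49 and rho 0.51 (adjusted permutation p 0.0448). This r was 0.15 without XXY male 3 and XY male 5, but 0.77 without XY male 2 (adjusted permutation p 0.000413). Its size thus moved in both directions with the arrays left out. Without XY male 2 the correlation of Tac1 with the lateral hypothalamic list was 0.67. XY male 5, the array lowest in Tac1 at -0.88, had the arcuate list at -2.03 and the lateral hypothalamic list at -2.64.

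Pdyn, the precursor gene of the dynorphin peptides, was nearest to Tac1 with r = 0.84 over 31 arrays, at 0.88 in batch 1 and 0.70 in batch 2. Rgs9 (r = 0.83), the ecto-nucleotidase gene Nt5e (r = 0.82), the neuronal calcium sensor gene Hpca (r = 0.77) and the peptide gene Cartpt (r = 0.76) came next. Cacng5 (r = -0.76) and Zfp423 (r = -0.68) ran most against it. The rho with Tac1 was 0.75 for Pdyn and Rgs9 and 0.60 for Hpca. In batch 2 r was 0.87 for Rgs9, 0.47 for Hpca and -0.48 for Cacng5. XY male 2 had the highest signal of Tac1, Pdyn and Rgs9, and XY male 5 the lowest of each. The relations with these single genes were not recomputed without XY male 2 or XY male 5. Tac1 and Cck had r = -0.39 and rho = -0.36, which did not pass (adjusted permutation p 0.121).

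The group means of the striatal list were 0.26 in XX males (range -0.33 to 0.78), -0.03 in XY males (-0.39 to 1.79), -0.08 in XX females (-0.39 to 0.39) and -0.12 in XXY males (-0.37 to 0.04). Their order was not that of the Tac1 means. Without XY male 2 the Tac1 difference between XXY and XY males moved from -0.06 to 0.10, and without XY male 5 to -0.19.

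Gal followed none of the 14 marker lists. Its r was 0.07 and rho 0.17 with the BNST and preoptic list (adjusted permutation p 0.769) and 0.02 and -0.02 with the thalamic list (adjusted permutation p 0.944). The relation of Gal farthest from 0 was with blood and choroid plexus genes, at r = -0.37 and rho = -0.40 (adjusted permutation p 0.158). With Cckbr, r was 0.28 and rho 0.35 (adjusted permutation p 0.336), and 0.52 without the 2 farthest arrays (adjusted permutation p 0.0384), while in batch 2 alone it was -0.02.

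The genes nearest to Gal over 31 arrays were Brix1 (r = 0.63), a ribosome assembly factor, Far1 (r = 0.62), Rnf138 (r = 0.60), Cdkn1b (r = 0.60), an inhibitor of cyclin-dependent kinases, and Pex7 (r = 0.60), a peroxisomal import receptor. Crybb1 (r = -0.67) and Pik3r2 (r = -0.64) ran most against it. For Gal the range from the 5th to the 95th percentile of all genes was -0.37 to 0.35. These named genes are the extremes of 8972, and their relations with Gal were not tested. Of the 10 measured BNST and preoptic markers, 6 had a positive and 4 a negative r with Gal, from -0.15 for the transcription factor Six3 to 0.30 for Pgr, and the estrogen receptor Esr1 had 0.20.

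**Figure D4:**
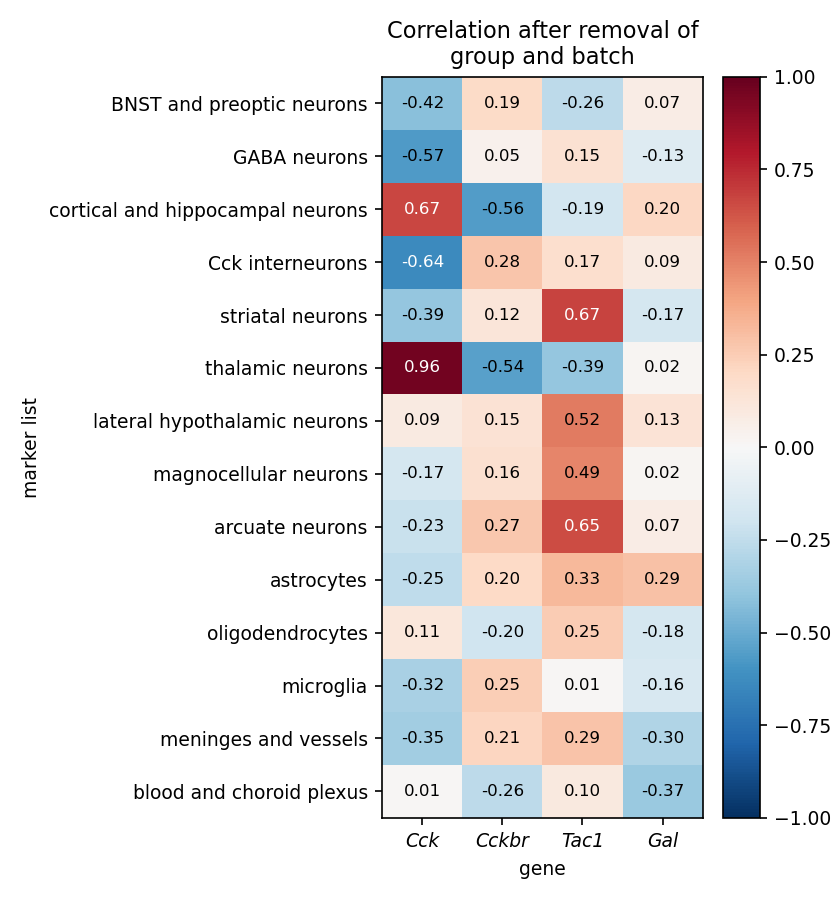
Pearson correlation (colour and number) of the deviations of each gene (x axis) with 14 marker list means (y axis) over 31 arrays, after group and batch were removed. Cck stands at 0.96 with thalamic neurons, Tac1 at 0.67 with striatal and 0.65 with arcuate neurons, and Gal stays between -0.37 and 0.29.

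The other genes of these pathways were counted by role. No gene of the cholecystokinin list (Cckar, Gast) or the galanin list (Galp, Spx and the galanin receptor genes Galr1, Galr2 and Galr3) was measured. Of 5 tachykinin genes 3 were measured, and 0 of 3 passed in any comparison. Tac2, the neurokinin B precursor gene, had a difference of -0.44 between XXY and XX males (-0.81 to -0.08, unadjusted p 0.018, adjusted p 0.748 by limma), and Tacr1, the substance P receptor gene, one of 0.24 between XX and XY males (adjusted p 0.893). For Tac2, XX females also differed from XX males by -0.44 (-0.81 to -0.08, unadjusted p 0.018, adjusted p 0.703 by limma). XXY males and XX females differed in Tac2 by 0.002.

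Of 12 peptide-processing genes 8 were measured and 0 passed in any of the 7 comparisons. Qpct, which forms the pyroglutamate cap of peptides, had the smallest p of the list between XXY and XX males, with a difference of 0.36 (0.05 to 0.66, adjusted p 0.748 by limma). Of 9 peptide-breakdown genes 6 were measured and 0 passed. Mme, which encodes neprilysin, a peptidase that cleaves substance P, had a difference of -0.38 between XXY males and XX females (-0.67 to -0.09, adjusted p 0.832 by limma).

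Of 13 genes of receptor signalling 8 were measured and 0 passed. Plcb4, a phospholipase C that acts below Gq-coupled receptors, had the smallest p of the pathway genes. It was at a mean of 8.43 in XX females and 7.92 in XX males, a difference of 0.58 (0.22 to 0.94, unadjusted p 0.003, adjusted p 0.548 by limma), and its F test over the 4 groups had an adjusted p of 0.913. Gnaq, the Gq alpha subunit, had a difference of 0.54 between XXY and XX males (0.15 to 0.92, adjusted p 0.746 by limma). The median difference over the 8 measured signalling genes was -0.01 in that comparison, where the median over all features was also near 0.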

How the data were processed

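Intensity values are, per the file headers, mean bead signals of 25697 probes on 31 arrays, deposited by the authors on a linear scale. The deposited table also holds a detection p-value, a bead standard error on the signal scale and a bead number for each probe. A second table, processed by the authors, gives log2 numbers for 12980 probes, and each column has a median of 8.65. No header states its scale, which was read from its match to the scanner values, and no source used here describes its annotation or batch handling. Per the submitters' processing notes, limma was used.

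Here intensities were background-corrected and quantile-normalized with neqc (offset 16) of limma 3.58.1 in R 4.3.3. The tests covered probes detected (p-value below 0.05) on 7 or more arrays. The brightest probe stood for its gene, which left 8973 named genes and 2739 unnamed probes. Limma was fitted with group and batch over all arrays, with two-sided tests and Benjamini-Hochberg adjustment over all 11712 features. Intervals are at 95%. The test was checked on simulated data. The number of arrays limits the precision. Correlations used residuals after group and batch.

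The genes and lists were chosen with earlier results of these data known. Named genes were the 4 genes, list genes with the smallest p or a known role, and, for each of the 4, the 5 genes with the highest and the 2 with the lowest correlation. Alternatives were the background correction, normalization, filter, batch term, array weights, the authors' values, a replicate block and leaving out arrays.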

Additional observations from a re-analysis of the deposited data

Results flagged for a closer look

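Among 16 combinations of gene and group tested for a single array far from the others, 1 was found. Chance alone flags about 1 in 20 of such combinations, so 1 among 16 is not unusual. Cckbr in XX female 1 was at 9.10 log2 units after removal of the batch term, with the next lowest XX female at 9.78 and the highest at 10.22. The gap was 0.604 of the group's range, above the critical value of 0.526 for 8 arrays. Without this array the Cckbr difference between XX females and XY males moved from 0.14 to 0.26, and that between XXY males and XX females from 0.15 to 0.030. Neither passed the test over all features with or without it. The other 3 genes on XX female 1 lay 0.20 above (Cck), 0.18 above (Tac1) and -0.33 from (Gal) their group and batch.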

How the results depend on the processing

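Over all alternatives 1368 tests of the 4 genes were recomputed, and 0 had an adjusted p under 0.05 by limma, with 0.416 the lowest. The direction turned in 36, 15 of them other than by leaving out 1 array. The other 1332 include the F tests over the 4 groups, which have no direction to turn. Array numbers, bead signal and bulk tissue limit what can be seen, and the intervals beside each difference give the sizes that remain possible. With 7 or 8 arrays in a group, the widest intervals were those of Cck. The causes of the changes below were not tested.

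Within batch 1 alone, Gal turned to -0.061 (XXY minus XY males), -0.034 (XXY males minus XX females) and 0.16 (XX females minus the 3 male groups), Cck to 0.032 (XX minus XY males), and Tac1 to -0.015 (XXY minus XX males), 0.056 (XX females minus XX males) and -0.072 (XXY males minus XX females). Within batch 2 alone, Tac1 turned to 0.25 (XXY minus XY males) and 0.20 (XX minus XY males), Cck to -0.085 (XX females minus XY males), Cckbr to 0.11 (XX minus XY males), and Gal to 0.26 (XX minus XY males), -0.11 (XXY minus XX males) and -0.62 (XX females minus XX males). Array weights turned Cck to -0.047 (XX females minus XY males), and counting XX male 6 in batch 2 turned its batch difference to -0.010.

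Leaving out 1 array at a time gave Tac1 -0.19 to 0.10 (XXY minus XY males), -0.22 to 0.075 (XX minus XY males) and -0.028 to 0.11 (XXY minus XX males). It gave Gal -0.045 to 0.084 (XXY minus XY males) and Cck -0.17 to 0.27 (XX females minus XY males), -0.39 to 0.020 (XX minus XY males) and -0.0051 to 0.50 (XX females minus XX males). Among differences that kept their direction, Cck ran from -0.60 to -0.21 (XXY minus XY males), -0.70 to -0.22 (XXY males minus XX females) and -0.44 to -0.012 (XXY minus XX males), Tac1 from -0.32 to -0.038 (XX females minus XY males), and Cckbr from 0.030 to 0.21 (XXY males minus XX females).

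Counts over all features moved with the filter. With probes detected on all arrays, 3 features passed for XX females minus XY males, 2 for XX minus XY males, 0 for XXY minus XX males, 1 for XX females minus XX males, 0 for XXY males minus XX females, 1 for XX females minus the male groups and 3 for the 4 groups, by limma. The authors' values gave 5 for XX females minus XY males and 1 for XXY minus XX males. Batch 1 alone gave 3 for XXY minus XY males and 1 for XX females minus XX males, and batch 2 alone 2 and 1.

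Same-numbered arrays had a median r of 0.037 (45 pairs, range -0.241 to 0.308, 14 over 0.1). Arrays of different number had a median of -0.006 (315 pairs, 85 over 0.1). These values show no clear pairing by number but cannot exclude one. A replicate block with batch gave 1 feature for XX females minus XX males in place of 3, and the Cckbr difference between XXY and XX males was 0.43 (adjusted p 0.836 by limma) under this replicate block.

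Of the 62 relations 11 passed over all arrays, 6 in batch 1 alone, 1 in batch 2 alone, 6 without the 2 farthest arrays and 8 to 10 in 4 runs that each left out 1 array chosen after its values were seen. Cck with Cckbr no longer passed in batch 1 alone (-0.42), in batch 2 alone (-0.66) or without the 2 farthest arrays (-0.50), and it ranged from -0.55 to -0.45 over the 4 runs, not passing without XY male 5 (adjusted p 0.0858, permutation). In batch 2 alone Cck was at 0.035 with Tac1 and 0.038 with Gal, and Cckbr at -0.15 with Tac1 and -0.015 with Gal, while Tac1 with Gal was -0.088 in batch 1. Cckbr with Gal was 0.52 and passed without the 2 farthest arrays. A further named probe was not tried, since each gene has 1.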
